A study of Mus musculus with 2 samples.

Results

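The 5 genes described here encode parts of secreted antibody or serve the cells that secrete it: the heavy chain constant regions Ighm and Igha, the kappa light chain constant region Igkc, the joining chain Jchain, and the transcription factor Xbp1. They were taken by symbol from the platform annotation, which gave them 7 of the 4654 probes with 1 gene symbol, 5 of 4331 genes. The study compared LatY136F with wildtype CD4+ alpha beta T cells of the mouse spleen on 2 two-colour arrays, each of which held both RNAs. The LatY136F allele replaces a tyrosine of Lat, the adaptor that links the T cell receptor to its downstream signals, with phenylalanine. Cells of both genotypes were purified by magnetic selection on anti-CD4 beads and cell sorting. Array 1 had LatY136F RNA in channel 2 and wildtype RNA in channel 1, and array 2 had the channels the other way round. Strain, age, the number of mice and whether the arrays shared RNA extracts were not stated in the labels, so the arrays count as 1 biological comparison with no test.

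An antibody is built from heavy and light chains, and its class (IgM, IgD, IgG, IgA) is set by the heavy chain constant region. B cells carry IgM and IgD on their surface. Plasma cells secrete antibody in bulk, and secreted IgM and IgA are held together as polymers by the joining chain. Xbp1 enlarges the secretory apparatus and is needed for plasma cell secretion, and it also acts in many other cells under stress of the endoplasmic reticulum. T cells do not make antibody, although transcripts of the unrearranged Ighm constant region are known in T cells. The joining chain was formerly called Igj. In RefSeq, Ighm and Igha lie in the heavy chain locus on chromosome 12, Igkc in the kappa locus on chromosome 6, Jchain on chromosome 5 and Xbp1 on chromosome 11.

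Each value is a log2 ratio of LatY136F over wildtype, in which 1 is a 2-fold higher and -1 a 2-fold lower value in LatY136F cells. The table gives neither the direction nor the log base. LatY136F over wildtype is the likely direction and log10 the likely base of the deposited values; under the opposite direction every sign below turns. All 7 probes had opposite deposited signs on the 2 arrays, as a dye-reversed pair gives for a difference between the RNAs, and array 2 was reversed in sign for all probes. Errors given with ± are 0.5 times the difference between the arrays. This difference may be technical only, and 0.5 times its size had a median of 0.15 over all genes. Because the table holds ratios without signals, neither the level of any of these transcripts nor that of Cd4 or Cd3e could be read, and presence of the labelled cell type could not be checked. Precision is limited by the number of arrays.

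The heavy chain genes and the other members stood on opposite sides of 0. Igha was 5.18-fold lower in LatY136F cells and Ighm 3.76-fold lower. Igkc was 1.76-fold higher, Xbp1 1.91-fold and Jchain 2.22-fold. Of the 5 genes, 2 were at least 2-fold lower on both arrays, against 0.970% of all genes, and 0 were at least 2-fold higher on both, against 4.20%. With a limit of 1.5-fold on both arrays, 2 were lower (2.93% of all genes) and 3 were higher (7.83%). In these cell preparations fewer cells of a type and less RNA per cell cannot be told apart.

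Igha, the constant region of IgA, had 1 probe, and its deposited log10 ratio was -0.733 on array 1 and 0.706 on array 2. In log2, after turning and centring, these were -2.42 and -2.32, a mean of -2.37 ± 0.05. Both arrays placed IgA transcript far below 0, and only 4 of 4331 genes had a lower mean. The difference between the arrays was small: 19.6% of genes had a smaller one.

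Ighm, the constant region of IgM, had 2 probes of very different size. Probe 635823 gave deposited log10 ratios of -0.840 on array 1 and 0.886 on array 2, or -2.78 and -2.92 in log2. Its mean of -2.85 ± 0.07 (7.21-fold lower) was the 3rd lowest of the 4654 probes. Probe 639246 gave -0.298 and 0.300, or -0.98 and -0.97 in log2, a mean of -0.98 ± 0.002 (1.97-fold lower). It lay just short of the 2-fold limit on both arrays, so the Ighm call rests on the other probe. Counted by probe, 2 of the 7 were at least 2-fold lower on both arrays, against 0.967% of probes with 1 symbol. The gap between the Ighm probes was -1.80 on array 1 and -1.95 on array 2, many times the difference between the arrays. Among the 294 genes with several probes the median gap was 0.23, and 1 gene had a larger gap than Ighm. Which parts of the transcript these probes read is not given here, so secreted and membrane forms of IgM were not separated.

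Igkc, the constant region of the kappa light chain, had 1 probe, with deposited log10 ratios of 0.272 on array 1 and -0.207 on array 2. These gave 0.91 and 0.71 in log2, a mean of 0.81 ± 0.10. Both arrays lay above 0 and neither reached 2-fold.

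Jchain had 2 probes that agreed in sign and differed in steadiness. Probe 639727 gave 1.04 on array 1 and 0.98 on array 2, a mean of 1.01 ± 0.03 (2.01-fold higher). Probe 640896 gave 1.78 and 0.80, a mean of 1.29 ± 0.49 (2.45-fold higher). All 4 values were above 0, and for both probes array 1 passed the 2-fold limit while array 2 fell short of it. The probe means differed by 0.28, less than the difference between the arrays within probe 640896. Averaged over its probes, Jchain gave 1.41 on array 1 and 0.89 on array 2, a mean of 1.15 ± 0.26.

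Xbp1 had 1 probe, with deposited log10 ratios of 0.249 on array 1 and -0.303 on array 2. In log2 these were 0.84 and 1.03, a mean of 0.93 ± 0.10. Here array 2 passed the limit and array 1 did not. By mean ratio Xbp1 was the 290th highest of 4331 genes, Jchain the 200th and Igkc the 350th. The means of Xbp1 and Igkc cannot be ordered, since Xbp1 minus Igkc was -0.08 on array 1 and 0.32 on array 2. Nor can those of Xbp1 and Jchain, where the difference was -0.57 on array 1 and 0.14 on array 2.

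Of the 5 genes, Jchain and Xbp1 have an entry in the RefSeq promoter table, and for this reason their 250 bases upstream of the transcription start are shown. Capitals mark ACGT, the core that Xbp1 protein is known to bind, and CANNTG, the E box.
Jchain promoter, GRCm38.p6 chr5:88527898-88528147, minus strand: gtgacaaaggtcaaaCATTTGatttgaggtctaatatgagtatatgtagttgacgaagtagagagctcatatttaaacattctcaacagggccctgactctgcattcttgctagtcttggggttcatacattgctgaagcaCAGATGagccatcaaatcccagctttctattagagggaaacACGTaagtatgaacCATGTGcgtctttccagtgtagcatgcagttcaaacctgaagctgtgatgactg
Xbp1 promoter, GRCm38.p6 chr11:5520391-5520640, plus strand: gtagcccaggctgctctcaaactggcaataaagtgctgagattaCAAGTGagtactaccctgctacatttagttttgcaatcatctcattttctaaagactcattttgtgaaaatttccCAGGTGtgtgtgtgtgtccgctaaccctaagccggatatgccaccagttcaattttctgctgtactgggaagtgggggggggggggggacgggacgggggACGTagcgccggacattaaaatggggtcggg
Both strands were searched. ACGT occurred once in each, beginning 68 bases before the Jchain start and 31 bases before the Xbp1 start, and 26.9% of 32851 windows of this length hold it. The Jchain window held 3 E boxes and the Xbp1 window 2, and 66.2% of windows hold at least 1. ATGCAAAT, the octamer of immunoglobulin promoters (1.6% of windows), and TGACGTG, a longer Xbp1 element that contains ACGT (1.65%), were in neither window. These matches describe letters in the windows and not binding.

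**Figure D1:**
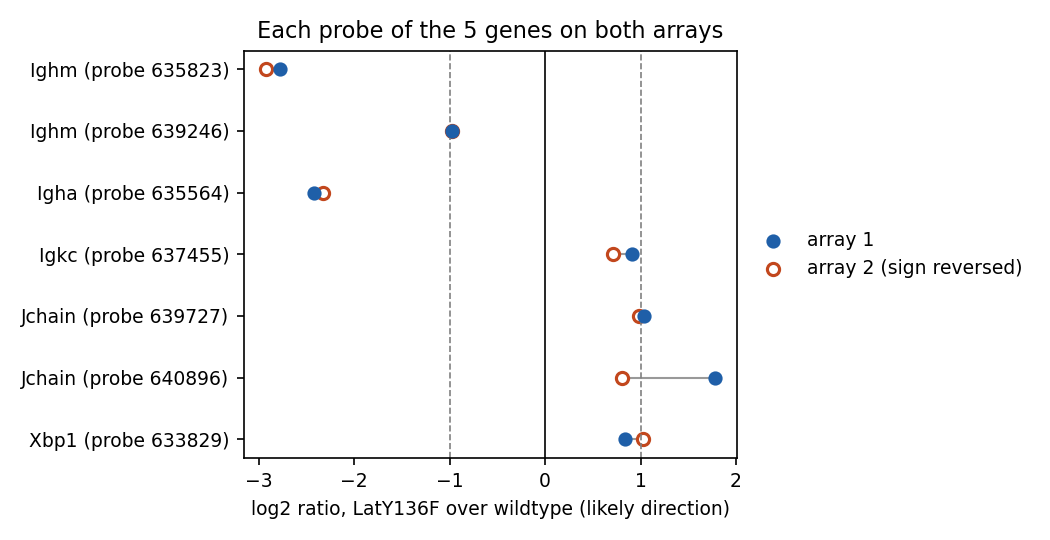
Log2 ratio of LatY136F over wildtype for the 7 probes of Ighm, Igha, Igkc, Jchain and Xbp1; filled points are array 1, open points array 2 after its sign was reversed, and dashed lines mark 2-fold. The heavy chain probes lie at or left of -0.97 and the other 4 probes at or right of 0.71.

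The gap between chains can be read within each array, where centring cancels. The log2 ratio of Igha minus that of Igkc was -3.34 on array 1 and -3.03 on array 2, a 9.10-fold unequal change. For Ighm minus Igkc it was -2.79 and -2.66 (6.61-fold). With its probes taken singly, Ighm minus Igkc was -3.69 and -3.63 for probe 635823 and -1.89 and -1.68 for probe 639246. Against Jchain, the difference was -3.83 on array 1 and -3.21 on array 2 for Igha, and -3.29 and -2.84 for Ighm. The heavy chains thus lay apart from the kappa and joining chains on each array by more than the arrays differed from each other. Igha minus Ighm was -0.55 and -0.38, a gap smaller than that between the Ighm probes, so their order is not settled.

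The remaining immunoglobulin probes on the array extend this description to 23 probes of 21 immunoglobulin genes, every one whose single symbol begins with Igh, Igk or Igl. Ighmbp2, a helicase gene whose symbol also begins this way, is not an immunoglobulin gene (-0.72 on array 1 and -0.02 on array 2). Variable gene probes can pick up related variable genes, so they name a family more surely than a gene. All 6 heavy chain constant probes were below 0 on both arrays, with a median of -0.92, whereas 25.5% of all probes with 1 symbol were below 0 on both. Beside Ighm and Igha, Ighd, the IgD constant region, gave -0.80 and -0.92, a mean of -0.86 ± 0.06. The IgG constant genes lay closer to 0. Ighg3 gave -0.38 and -0.67, and Ighg2c -0.20 and -0.66, the smallest change of the constant genes measured. In the heavy chain locus on chromosome 12 Ighm and its neighbour Ighd stand nearest the variable segments, the IgG genes follow, and Igha stands at the far end. With the Ighm probes averaged, the largest ratios were thus at both ends of the measured constant genes, and the IgG genes between them were nearer 0. Ighg1, Ighg2b and Ighe, which lie between Ighg3 and Igha, were not analysed here.

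Heavy chain variable probes gave no common direction. Igh-VS107 was lower on both arrays (-0.61 and -0.69). Ighv5-12 gave 0.67 on array 1 and -1.20 on array 2, and Ighv7-1 0.62 and -0.53. Opposite signs of this size leave the last 2 without a direction.

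Light chain probes lay on the other side. Of 13 kappa and lambda probes, 11 were above 0 on both arrays and 0 were below 0 on both, with a median of 0.35. Over all probes with 1 symbol 29.9% were above 0 on both. Igkv19-93, a kappa variable gene, had the highest ratio, 1.98 on array 1 and 1.68 on array 2 (3.55-fold higher). Of the 23 immunoglobulin probes, only this 1 was at least 2-fold higher on both arrays. That count is near the share of all probes with 1 symbol, 4.28%. Igkv16-104 gave 0.28 and 0.88, and Igkv15-103 gave 0.61 and 0.43. Igkv1-135, Igkv4-68, Igkv4-77 and Igkv9-120 had means between 0.09 and 0.35. RefSeq lists Igkv4-77, like Ighv7-1, as a pseudogene. The 2 probes of Igkv14-111 disagreed: 1 gave 0.91 and 0.99, the other 0.32 and -0.51. Igk-V21 gave 0.21 and -1.67 and has no direction. The lambda variable genes Iglv1 (0.67 and 0.65) and Iglv3 (0.21 and 0.19) matched closely between the arrays. Igll1, part of the surrogate light chain of precursor B cells, gave 0.17 and 0.09. Light chain probes may share target RNA, which was not tested, so the 11 need not be separate measurements.

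**Figure D2:**
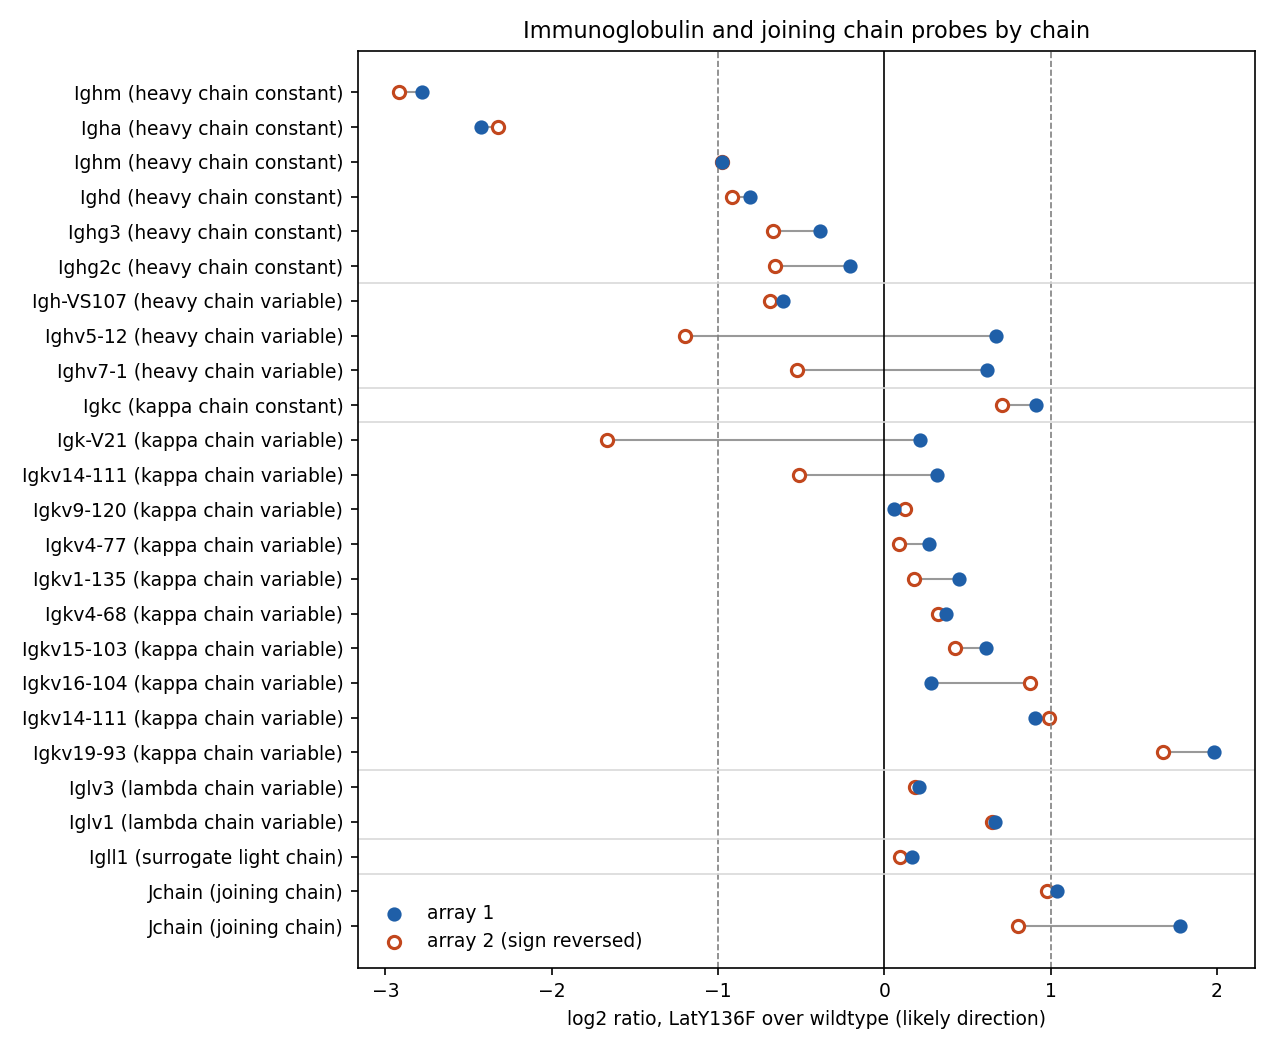
Log2 ratio of LatY136F over wildtype for 23 immunoglobulin probes and 2 Jchain probes, grouped by chain, with array 1 filled, array 2 (sign reversed) open and dashed lines at 2-fold. The 6 heavy chain constant probes lie left of 0 on both arrays, and 11 of the 13 kappa and lambda probes lie right of 0 on both.

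Other genes of plasma cells went both ways. Of 38 genes listed with immunoglobulins and plasma cells, 15 were measured. Without the 5 genes above, 10 remained, with a median of 0.003 beside 0.0004 over all genes. Of these 10, 4 were the immunoglobulin genes Ighd, Ighg3, Ighg2c and Iglv1 described above. The other 6, set apart after their values were seen, had a median of 0.62. Irf4, a transcription factor of plasma cells and of activated T cells, gave 1.39 and 1.04 (1.22 ± 0.18). Txndc5, a protein disulphide isomerase, gave 1.02 on each array. Both passed 2-fold upward on each array (4.20% of all genes). Of the 10, 0 passed it downward (0.970%), a count near that share. Prdm1, the transcription factor Blimp-1 of plasma cells and effector T cells, was named after its values were seen. It gave 0.91 and 1.53, short of 2-fold on array 1. Glcci1 at -0.68 and Tnfrsf13b at -0.21 were likewise named afterwards. Tnfrsf17, the receptor BCMA of plasma cells, lay at 0.21 ± 0.01, the median of the 15 genes. Irf4, Prdm1, Txndc5 and Xbp1 are also made outside the B lineage, and the source of their transcripts was not tested.

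Genes of the secretory pathway, which Xbp1 is known to drive, had small ratios. Of 29 measured, 22 had a mean above 0 and 7 below it, where 49.9% of all genes lay below, and the median was 0.33. On both arrays 0 were at least 2-fold higher (4.20% of all genes) and 0 lower (0.970%). At 1.5-fold, 2 were higher (7.83%) and 0 lower (2.93%), counts near those shares. Sec61b, a subunit of the channel into the endoplasmic reticulum, was at the median (0.33 ± 0.01). The gene nearest Xbp1 among them was P4hb, a protein disulphide isomerase, at 0.88 and 1.05.

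Markers of B cells differed beside the heavy chains. Of 28 measured, 24 had a mean below 0, against 49.9% of all genes, and the median was -0.57. At the 2-fold limit on both arrays 8 were lower (0.970% of all genes) and 0 higher (4.20%). Means ran from -2.29 to 1.14. Cd79b, a signalling partner of surface immunoglobulin, stood at -2.29 ± 0.18, near Igha. Cd79a, another such partner, was short of the 2-fold limit at -0.55 ± 0.18 and was named after its values were seen. The complement receptor Cr2 gave -1.76 ± 0.29, Cd72 -1.73 ± 0.14, the adaptor Blnk -1.61 ± 0.09 and the inhibitory receptor Cd22 -1.59 ± 0.05. Spib (-1.41 ± 0.28), a transcription factor of B cells, Fcrla (-1.39 ± 0.05) and the low-affinity IgE receptor Fcer2a (-1.14 ± 0.01) completed the set, and Cd74, the invariant chain, lay near the median (-0.58 ± 0.07). The part of B cells in the heavy chain ratios was not tested.

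**Figure D3:**
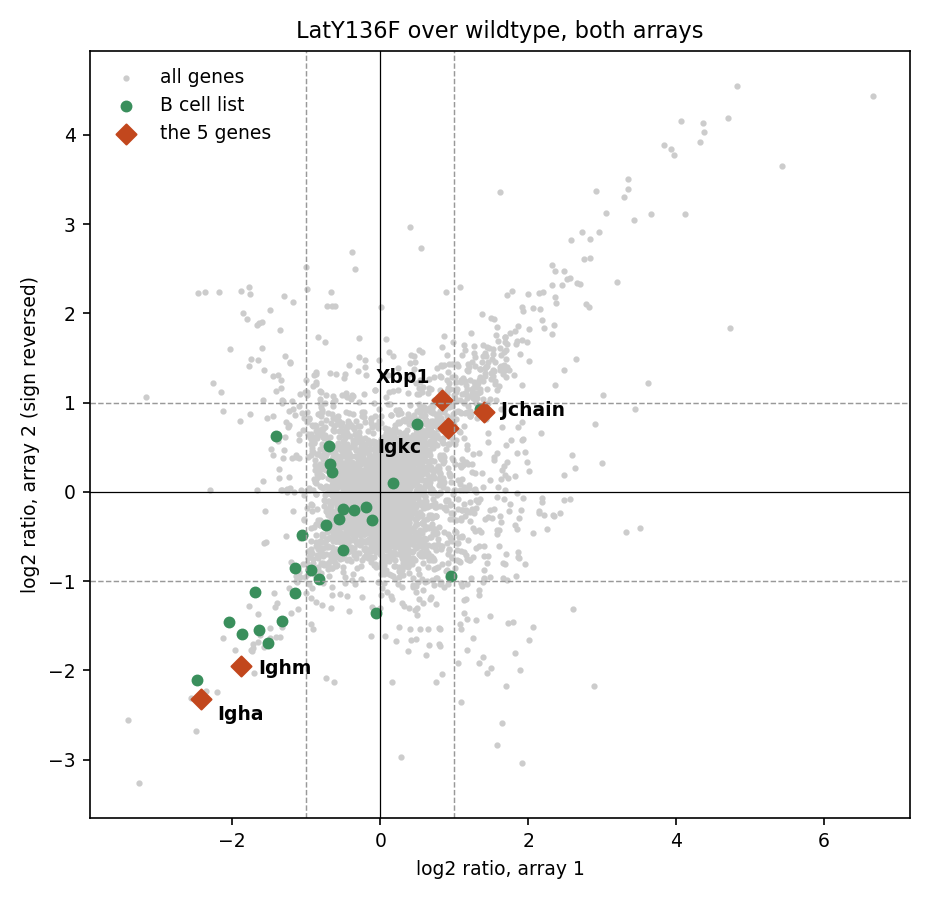
Log2 ratio of LatY136F over wildtype on array 1 (horizontal) and array 2 with its sign reversed (vertical) for 4331 genes in grey, 28 B cell markers in green and the 5 genes as diamonds; dashed lines mark 2-fold. Igha and Ighm lie in the lower left among the lowest B cell markers, and Igkc, Xbp1 and Jchain lie in the upper right at the edge of the 2-fold limit.

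Genes that act on or receive antibody were mixed. Of 9 measured immunoglobulin receptor genes, Fcer1g (1.56 and 1.45) and Fcgr2b (1.52 and 1.30), both Fc receptor genes, passed 2-fold upward on both arrays (4.20% of all genes). Fcer2a was 2-fold lower on both (0.970%), and Fcgr3 was at the median of 0.84. Fcer1g is also a myeloid gene. Among 15 genes of monocytes and macrophages, 8 passed 2-fold upward (4.20% of all genes) and 0 downward (0.970%), with a median of 1.23 and means from -0.45 to 2.73. They were Mrc1 (2.73), C1qc (2.48), Lyz1 (2.27), Vcam1 (1.52), Fcer1g, Adgre1 (1.49), C1qa (1.39) and Mpeg1 (1.13), and Cd14 was at the median. Of 6 neutrophil markers 3 were higher by the same limit, Il1r2 (3.62), Lcn2 (3.14) and Ngp (2.50), with Mmp9 at 1.02 and a list median of 1.76. The part of these cells in the Fc receptor ratios was not tested. Of the CD8 T cell markers, Cd8b1 was lower (-2.22 ± 0.02) and Cd8a stood at -0.63 ± 0.16.

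Of 12 genes listed as T cell signals to B cells, 11 were measured. Of these, 4 passed 2-fold upward on both arrays (4.20% of all genes) and 0 downward (0.970%), with a median of 0.77. Il6, a cytokine that promotes plasma cell differentiation, gave 5.43 and 3.65. Il13, a type 2 cytokine, gave 3.67 and 3.12, Tnfsf13b, the B cell survival factor BAFF, 2.00 and 2.22, and Il10 1.33 and 1.11. Il6 and Tnfsf13b are also made by myeloid cells, whose markers were higher too (8 of 15 monocyte and macrophage and 3 of 6 neutrophil genes), and their part in these ratios was not tested. The costimulator Icos was at the median (0.77 ± 0.07). Of 11 genes of class switching and the germinal centre 0 were 2-fold higher (4.20% of all genes) or lower (0.970%) on both arrays, a count near those shares. Their median of -0.12 was that of the mismatch repair gene Pms2. The 11 CD4 T cell markers had a median of 0.07, that of Il7r, with 0 at least 2-fold apart on both arrays, likewise near the shares of all genes.

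**Figure D4:**
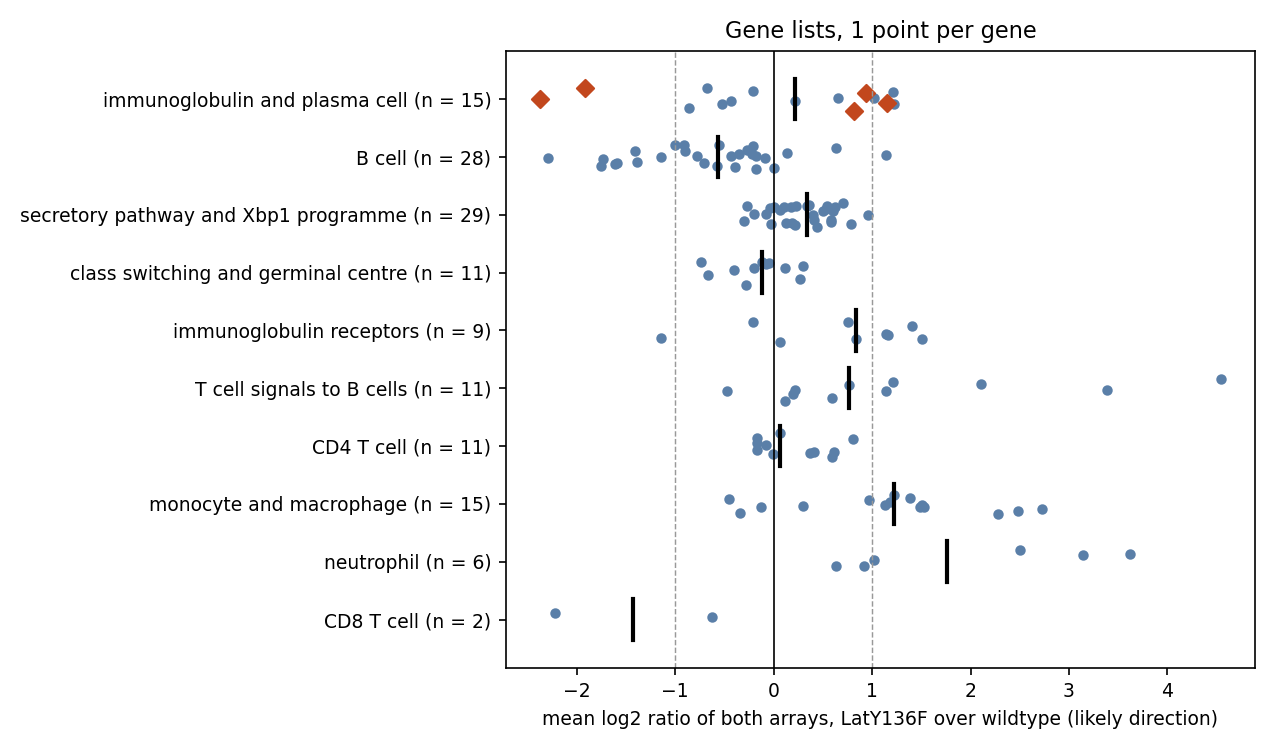
Mean log2 ratio of both arrays for each measured gene of 10 gene lists, with black bars at the list medians, diamonds for the 5 genes and dashed lines at 2-fold. The diamonds split into Igha and Ighm left of -1.9 and the other 3 right of 0.8, while the B cell markers have a median of -0.57 and the secretory pathway genes one of 0.33.

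The genes most like each member were found by the Euclidean distance over the log2 ratios of both arrays, which rests on 2 values per gene and says nothing of shared function or control. Nearest to Igha were Usp28 (distance 0.11), Srpk3 (0.13) and Cd79b (0.22). Nearest to Ighm were Cd27 (0.19), Ccr7 (0.19) and 4933406I18Rik (0.22). Cd27 is a costimulatory receptor and Ccr7 a homing receptor of naive lymphocytes. Igkc had Epcam (0.04), Twistnb (0.04) and Icos (0.08) as neighbours. Jchain had Vpreb1 (0.07), the other part of the surrogate light chain, with Racgap1 (0.07) and 4930412O13Rik (0.08). For Xbp1 they were Anxa11 (0.02), Gabarapl1 (0.03) and P4hb (0.04).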

How the data were processed

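Total RNA of splenic CD4+ alpha beta T cells was compared on 2 two-colour arrays of reversed polarity, per the labels. The deposited table holds 1 log10 ratio per probe and array for 8014 probes. Per the deposited values, the base was read as log10 because the highest value of array 1 is exactly 2, a 100-fold limit; base, direction, background correction and normalization are not stated in the sources. The deposited medians were -0.0033 and 0.0070, and the Pearson correlation of the columns as deposited was -0.21. Values were multiplied by 3.32 to log2, array 2 was reversed in sign, each array was centred on its median, and probes of a gene were averaged (Python 3.11.15, pandas 2.3.3, numpy 2.4.6). The platform annotation named 1 gene for 4654 probes; the 73 with several symbols and the 3287 without one were not named. All 5 genes matched RefSeq (GRCm38.p6) by gene identifier. The calling rule was tested on simulated data. The simulated errors were drawn from the differences between these 2 arrays, so variation between animals was not covered. The 5 genes and the 10 gene lists were chosen with earlier results of these data known. Named were the 5 genes, every immunoglobulin probe, list members at least 2-fold apart on both arrays, the member nearest each list's median, and 3 nearest genes per member. The promoter motifs were chosen after the files were seen. Alternatives were either array alone, no centring, scaling, other thresholds, the strongest probe, the log2 reading and the turned sign.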

Additional observations from a re-analysis of the deposited data

How the results depend on the processing

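Igha and Ighm had the opposite sign to Igkc, Jchain and Xbp1 on either array alone. The other alternatives run for these 5 genes could not change this split. For the strongest probe this held because both Ighm probes were below 0 and both Jchain probes above 0 on each array. Igha, Igkc and Xbp1 had 1 probe each. Scaling, the log2 reading and the turned sign multiply all genes of an array alike. Leaving out centring shifts all genes of an array by only 0.011 (array 1) or 0.023 (array 2). Sizes and signs depended on the reading of the table. With the sign of both arrays turned, the values became 1.91 for Ighm, 2.37 for Igha, -0.81 for Igkc, -1.15 for Jchain and -0.93 for Xbp1, with 2 members at least 2-fold higher and 0 lower, 42 genes higher and 182 lower, and medians of -0.21 (immunoglobulin and plasma cell list), 0.57 (B cell) and -0.33 (secretory pathway). Read as log2, they were -0.58, -0.71, 0.24, 0.35 and 0.28 in that order of genes, with 0 members lower, 13 genes higher and 0 lower, and medians of 0.064, -0.17 and 0.10. Leaving out centring, or scaling the arrays, kept the 5 gene means and the 3 list medians within the difference between the arrays. Without centring 177 genes were higher in place of 182, and the other counts of genes and members did not change. With the strongest probe Ighm was -2.85. Either array alone, which needs 1 array for a call, gave 1 member higher (array 1: Jchain; array 2: Xbp1), 341 to 408 genes higher and 145 to 151 lower. For single arrays the B cell median ran from -0.71 to -0.57. A limit on the mean put 1 member, Jchain, past 2-fold upward and 2, Igha and Ighm, downward. Under that limit 259 of 4331 genes were higher and 59 lower. A 1.5-fold limit gave 3 members higher, with 339 genes higher and 127 genes lower; at 3-fold the gene counts were 69 and 19. Without the 5 genes the immunoglobulin and plasma cell median was 0.0030. No paired analysis was possible because the design holds 1 comparison and no second group. Signal over background is unknown, so precision could not be set by brightness.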
